A study of Mus musculus with 4 samples.

Results

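Ribosome footprints on coding sequences of the mouse heart were set against the coding RNA of the same organ, gene by gene, for the 10680 of 10791 listed heart genes that had at least 1 RPM of coding RNA. RPM is reads of a gene scaled to a fixed library total, and the 2 tissue tables of the series held 11237 gene symbols between them. The 111 genes under the minimum were left out, and the values at its edge were 0.71, 2.3 and 5.95 RPM of footprints at 1.07 RPM of RNA for Slc52a3, Ccl24 and Efhd1, just inside, and 0.6, 1.13 and 2.87 RPM of footprints at 0.96 RPM of RNA for Gm16515, A630001G21Rik and Cks1b, just outside. The series held 4 libraries from male C57BL/6J mice aged 10 weeks: heart footprints, heart RNA, and footprints and RNA of tibialis anterior (TA), a fast hindlimb muscle. No treatment, transgene or mutation is named in the labels, and each group was 1 library, so nothing below could be tested against replicates. The number of animals behind a library is not stated in the labels.

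A ribosome that is translating an mRNA shields a short stretch of it from nuclease, and sequencing those stretches shows where and how densely ribosomes sit. Dividing the footprints of a gene by its RNA gives its translational efficiency, a measure that depends on how often ribosomes start and how long they dwell. The scanning ribosome usually begins at the first AUG it meets in a favourable context, so an AUG upstream of the annotated start, in the 5-prime untranslated region (5' UTR), is a textbook means of lowering translation of the main coding sequence. The heart is known for heavy investment in contractile and mitochondrial proteins, but its cells also hold the machinery common to all cells, and the classes below cover that machinery.

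Cardiomyocyte markers had the largest sums of the marker sets: the 7 listed summed to 148046 RPM of footprints and 92094 RPM of RNA, with Myh6, the adult cardiac myosin heavy chain, at 90515 RPM of footprints against 60773 RPM of RNA. Markers of the other cells of the organ were present at lower sums. The 5 endothelial markers summed to 1084 RPM of footprints and 1076 RPM of RNA, the 5 fibroblast markers to 1551 RPM of footprints against 998 of RNA, the 5 smooth muscle and pericyte markers to 618 RPM of footprints against 565 of RNA, and the 5 macrophage and leukocyte markers to 273 RPM of footprints against 215 of RNA. Of 6 skeletal fibre markers 4 were listed, at 394 RPM of footprints against 319 of RNA in sum, of which Acta1 alone made 360.2 RPM of footprints and 202 of RNA; the other 3 had log2 ratios of footprints to RNA of -1.90 to -1.09 relative to the median gene. Of 3 red cell markers 2 were listed, at 16962 RPM of footprints against 12485 of RNA. In whole tissue, fewer cells of a type and less RNA per cell cannot be told apart, and every efficiency here is an average over cell types. The heart libraries held about 28130000 coding footprints and 9270000 coding RNA reads, as far as the steps between low values show.

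The ratio of footprints to RNA had a median of 0.737, and log2 efficiency is given throughout relative to that median gene. Most heart genes lay close to it: the log2 efficiency was -0.73 at the 25th percentile and 0.69 at the 75th, -2.78 at the 1st and 2.56 at the 99th. At least 2-fold above the median lay 1710 genes, 16.0% of those measured, and at least 2-fold below it 1905 genes, 17.8%. These shares are the background for every count of class members below. Functional classes separated along this range. Of 87 classes, which together held 2703 genes, 55 had a median above the median gene and 32 below it, and 5 had a median at least 2-fold away. The high ones were the 14-3-3 proteins and calmodulins, the septins, the subunits of respiratory complex I and the tubulins, and the low one was the large family of zinc finger genes.

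**Figure D1:**
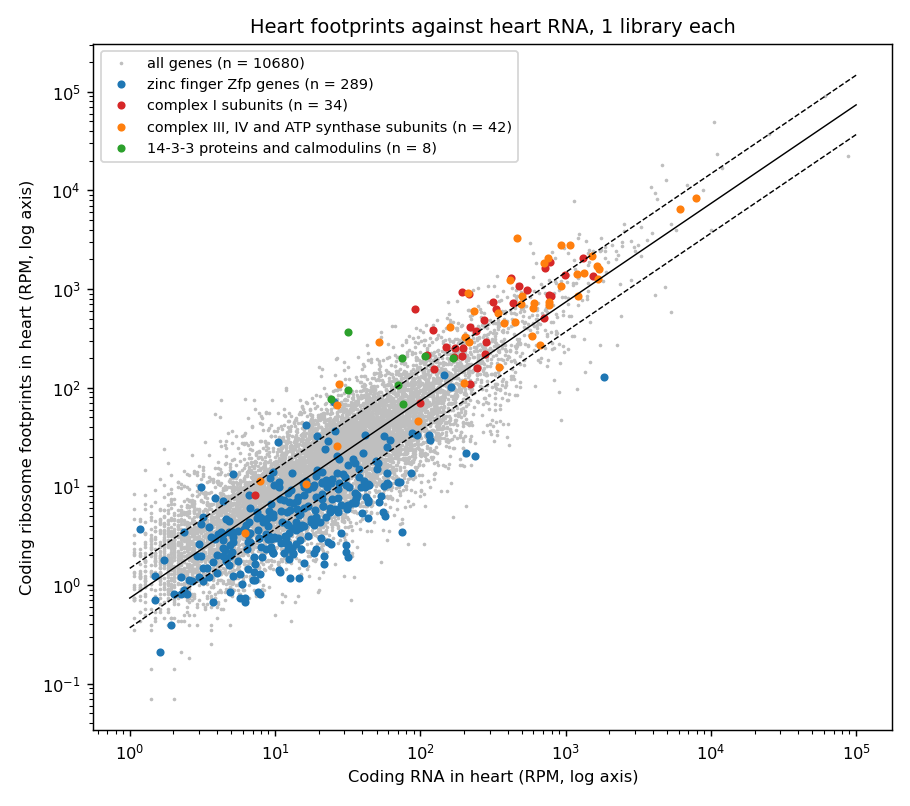
Coding footprints (vertical axis, RPM, log scale) against coding RNA (horizontal axis, RPM, log scale) of 10680 heart genes, with 4 classes in colour; the solid line is the median ratio of 0.737 and the dashed lines are 2-fold either side. The 8 genes of the 14-3-3 and calmodulin class all lie above the solid line, and 148 of 289 zinc finger genes lie on or under the lower dashed line.

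The single genes at the ends of the range were of mixed function. The 15 highest log2 efficiencies among genes with at least 10 RPM of RNA ran from 3.09 to 3.97, an 8.499-fold to 15.7-fold excess over the median gene. Ywhag, a 14-3-3 adaptor protein that binds phosphorylated partners, had 368 RPM of footprints against 31.7 RPM of RNA (log2 efficiency 3.97, counting interval 3.81 to 4.15). Mapre3, which binds growing microtubule ends, had 100.4 RPM of footprints against 11.9 of RNA (3.51). Pcbp1, which binds poly(C) stretches in RNA, had 194 RPM of footprints against 26.3 of RNA (3.31). All 3 had several times more footprints than RNA on the RPM scale. Small proteins of energy and calcium handling were also among the 15. Uqcrh, the hinge subunit of respiratory complex III, had 3332 RPM of footprints against 461 RPM of RNA (3.29), and Pln, phospholamban, which restrains the calcium pump of the sarcoplasmic reticulum, had 7790 RPM of footprints against 1149 of RNA (3.20). Gpx1, a glutathione peroxidase, stood at 3.22, Mt1, a metal-binding metallothionein, at 3.09 and Nol3, an inhibitor of apoptosis in muscle, at 3.09.

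The 15 lowest log2 efficiencies ran from -4.93 to -3.72, so that their footprints per RNA were 0.0328 to 0.0757 of those of the median gene. Il15, a cytokine of lymphocyte survival, had 0.71 RPM of footprints against 33.4 RPM of RNA (log2 efficiency -4.93, counting interval -5.85 to -4.46). Ccni, a cyclin, had 2.59 RPM of footprints against 105.7 of RNA (-4.86, interval -5.28 to -4.57), and Mapk6, an atypical MAP kinase whose protein is short-lived, had 1.70 RPM of footprints against 53.6 of RNA (-4.46). These 3 transcripts were plentiful in the RNA library and nearly bare of coding footprints. The others included the transcriptional regulators Tcf20 (6.31 RPM of footprints against 205 of RNA, -4.56), Satb1 (-4.05) and Zfp62 (-3.97), the potassium channel subunit Kcnv2 (-4.17) and the dermatan sulfate epimerase-like gene Dsel (-3.92). The most abundant of them in RNA, 2610507B11Rik, had 46.7 RPM of footprints against 930.0 RPM of RNA (-3.87, interval -3.96 to -3.79). Coding sequences were 153 to 1551 nt long among the 15 highest (median 600.0) and 483 to 6699 nt among the 15 lowest (median 2157).

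**Figure D2:**
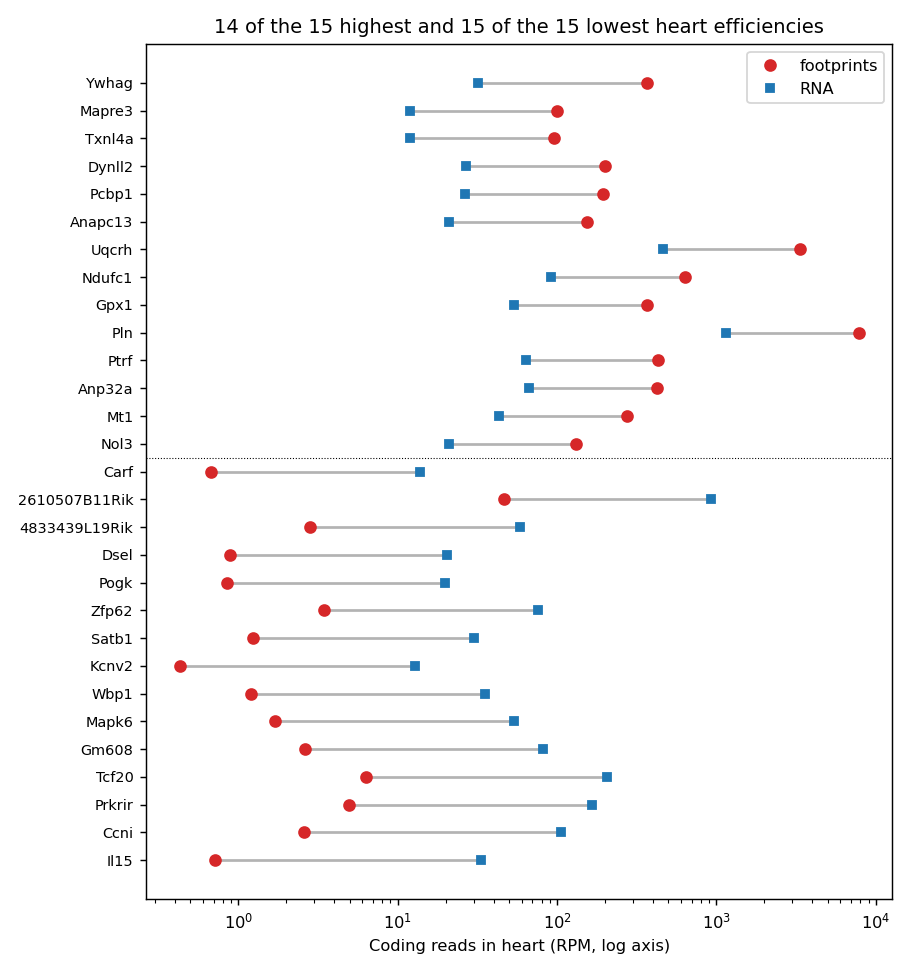
Coding footprints (red circles) and coding RNA (blue squares) in RPM on a log axis for 14 of the 15 genes of highest and the 15 of lowest heart efficiency at 10 RPM of RNA or more, in order of efficiency from the top. Footprints lie right of RNA for all genes above the dotted line, from Ywhag at 368 RPM of footprints against 31.7 of RNA, and left of it for all genes below, down to Il15 at 0.71 RPM of footprints against 33.4 of RNA.

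The sequence around the start codon is shown for genes at the 2 ends whose 5' UTR model could be matched, because upstream AUGs were unevenly spread between them. Of the 8 matched genes among the 15 highest, 2 had an upstream AUG; of the 6 matched among the 15 lowest, all 6 had at least 1. Over all 6044 matched heart genes, 2983 had at least 1, and the matched genes at the ends are few. Capitals mark the AUG, written ATG as in the cDNA, with 12 bases before it and 9 after. The sequences are from GENCODE release M21 transcripts on GRCm38. Among the high genes shown, Pln had 1 upstream AUG and the others none. Their annotated starts read:
Dynll2: tgacgtgtcacgATGtctgaccgg
Anapc13: agctgcaggaggATGgacagtgag
Uqcrh: ccggctcccgacATGggactagag
Ndufc1: ctgcggaacaagATGgcgccgtcc
Pln: cttcctggcataATGgaaaaagtg
Anp32a: agagcgcgagagATGgagatggac
For 5 of the low genes the first upstream AUG is followed by the annotated start. Distances are from the A of the upstream AUG to the A of the annotated start: 383 nt in Ccni, which had 4 upstream AUGs, 626 nt in Mapk6, which had 12, 246 nt in Zfp62, which had 6, 1053 nt in Dsel, which had 23, and 42 nt in 2610507B11Rik, which had 1. Here and below, upstream AUGs were counted as triplets in any reading frame, and stop codons were not considered. An upstream AUG may thus be in frame with the annotated start.
Ccni, upstream: ccccgccgccctATGgcgagaggg
Ccni, annotated: caaagggataccATGaagtttcca
Mapk6, upstream: aaaaacaccctgATGaaaacgttg
Mapk6, annotated: aagggtttcaaaATGgcagagaaa
Zfp62, upstream: ccagaagttgaaATGgaaggtcta
Zfp62, annotated: ttgaagacaaccATGgaggatgag
Dsel, upstream: agcagaaggacgATGcgttctgaa
Dsel, annotated: tccccatggatcATGgcgtttatg
2610507B11Rik, upstream: tcagggcccggcATGgcgggggtc
2610507B11Rik, annotated: acccggacctaaATGcctctattt

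The 5' UTRs of several of the low genes carried footprints of their own. In 9 of the 15 lowest genes the 5' UTR was denser in footprints per nt than the coding sequence, and in none of the 15 highest. Over the 3448 heart genes with at least 1 RPM of 5' UTR RNA, it was denser in 765 (22.2%). Coding footprints chose the genes of both ends and are the denominator of this ratio, so the contrast between the ends is a description that the choice largely fixes. Per nt, the 5' UTR of Ccni had 3.499 times the footprints of its coding sequence (5.03 RPM over 626 nt), that of Mapk6 3.01 times (1.84 RPM over 776 nt) and that of Dsel 5.12 times (2.09 RPM over 1661 nt). The same ratio was 0.0316 for Pln and 0.0146 for Uqcrh. In Zfp62 it was 0.107, so this low gene did not show it.

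Ribosomal proteins differed by compartment. Mitochondrial ribosomal proteins, which build the ribosome that translates the respiratory chain subunits of mitochondrial DNA, had a median log2 efficiency of 0.67 over 73 genes, with 23 at least 2-fold above the median gene (31.5%, against 16.0% of all genes) and 4 at least 2-fold below. Mrps6 had 55.4 RPM of footprints against 8.67 RPM of RNA (log2 efficiency 3.10) and Mrps34 77.8 RPM of footprints against 17.9 of RNA (2.56). Mrpl42, the member with most RNA reads, went the other way with 43.7 RPM of footprints against 207 of RNA (-1.80). The 72 cytosolic ribosomal proteins centred on the median gene (0.04; 11 at least 2-fold above and 10 below, shares near or under the background). They spread widely, with Rpl41, a very small basic protein of the large subunit, at 162 RPM of footprints against 31.6 RPM of RNA (2.79) and Rps12 at 29.1 RPM of footprints against 198 of RNA (-2.33). With the trend along coding length removed, the median of the cytosolic ribosomal proteins was -0.64 and that of the mitochondrial ones 0.17. Ribosomal protein genes have many near-identical processed copies, and the labels do not say how reads with several matches were treated, so their single values are uncertain.

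Initiation factors sat higher, with a median of 0.61 over 42 genes (11 at least 2-fold above, 3 below). Eif1, which guards the choice of start codon, had 332 RPM of footprints against 83.8 RPM of RNA (log2 efficiency 2.43), and its close relative Eif1b 46.2 RPM of footprints against 12.2 of RNA (2.35). Eif5, its counterpart that triggers GTP hydrolysis at the start codon, had 47.1 RPM of footprints against 159.6 of RNA (-1.32), and Eif4g2, a relative of the scaffold eIF4G, had 182 RPM of footprints against 1484 of RNA (-2.59, counting interval -2.63 to -2.54). These 4 are the highest and the lowest members of the class. The elongation factor pair also split: Eef1a2, the form of muscle and neurons, had 1990.4 RPM of footprints against 1139.7 RPM of RNA (1.24), and Eef1a1, the general form, 332 RPM of footprints against 1101 of RNA (-1.29). The 20 cytosolic and 16 mitochondrial tRNA synthetases, which load amino acids on tRNA, stayed near the median gene (0.15 and -0.05), and among them only Wars, at 1.24, was 2-fold away.

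Proteasome subunits and the E2 enzymes had medians above the median gene, and the ubiquitin ligases and ubiquitin-specific proteases medians below it. All 16 core subunits of the 20S proteasome were within 2-fold of the median gene or above it (median 0.60; 2 at least 2-fold above), as were the 17 subunits of the 19S regulator (0.71; 8 above, none below), with Psmd7 at 131.7 RPM of footprints against 52.1 RPM of RNA (1.78). The E2 enzymes, which carry ubiquitin to its target, had a median of 0.63 over 32 genes, and 15 (46.9%) were at least 2-fold above. Ube2d3 had 504 RPM of footprints against 151.7 RPM of RNA (2.17) and Ube2v1 152 RPM of footprints against 30.0 of RNA (2.78). The RING-type TRIM and RNF ligases, which choose targets, had a median of -0.34 (91 genes; 13 above, 24 below), and F-box proteins, the target-binding parts of SCF ligases, one of -0.29 (46 genes; 5 above, 10 below). Rnf10 was the member with most RNA reads and had 26.1 RPM of footprints against 410.2 RPM of RNA (-3.53), whereas Trim54, a ligase of the sarcomere, had 268 RPM of footprints against 113.9 of RNA (1.68). The ubiquitin-specific proteases, which take ubiquitin off, had the second lowest median of all classes at -0.84, with 15 of 43 at least 2-fold below and 2 above. Usp34 had 28.8 RPM of footprints against 319 of RNA (-3.02) and Usp9x 356 RPM of footprints against 879 of RNA (-0.86), whereas Usp2 had 198 RPM of footprints against 94.6 of RNA (1.50). With the trend along coding length removed, the ubiquitin-specific proteases stood at -0.34 and the TRIM and RNF ligases at -0.38. The 20S subunits then stood at 0.12, the 19S subunits at 0.66, the E2 enzymes at 0.25 and the F-box proteins at -0.15. Most of these medians thus lay nearer the median gene than before.

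Folding helpers and autophagy genes were spread on both sides. The 8 subunits of the CCT chaperonin, which folds actin and tubulin, ran only from 0.10 (Cct2) to 1.23 (Cct3), a narrow span. DnaJ co-chaperones, which deliver clients to Hsp70, had a median of 0.57 over 36 genes and ran from Dnajb4, with 428 RPM of footprints against 122 RPM of RNA (2.25), to Dnajc27 (-2.66). Of 24 autophagy genes 7 were at least 2-fold above and 7 below. Gabarap, a ubiquitin-like protein of the autophagosome membrane, had 272 RPM of footprints against 74.6 of RNA (2.31), and the cargo receptor Sqstm1 483 RPM of footprints against 303 of RNA (1.11). At the low end Ulk2, a kinase that starts autophagy, had 8.89 RPM of footprints against 152 of RNA (-3.64), and the protease Atg4d 6.41 RPM of footprints against 37.7 of RNA (-2.10).

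The 164 genes of the 6 mitochondrial classes, which leave out mitochondrial translation and the fuel enzymes, took 8.67% of coding footprints and 6.68% of coding RNA, and the classes were not alike. Complex I subunits had a median of 1.08 over 34 genes, with 18 at least 2-fold above the median gene and none below, and subunits of complexes III and IV and the ATP synthase one of 0.70 (42 genes; 15 above, none below). Cox17, a copper chaperone for complex IV, had 326 RPM of footprints against 53.6 RPM of RNA (3.04), and the assembly factors as a class stood at 0.39. Import genes had a median of 0.37 over 22 genes: the small subunit Tomm5 of the outer membrane channel stood at 2.83 and Timm13, a chaperone between the membranes, at 2.58, but Tomm40l, a relative of the channel itself, had 5.17 RPM of footprints against 65.8 of RNA (-3.21). Solute carriers of the inner membrane were the exception among mitochondrial classes with a median of -0.26, and 11 of 36 (30.6%) were at least 2-fold below. Slc25a4, the ADP/ATP translocase and the member with most RNA reads, was at the median gene with 4014 RPM of footprints against 5734 of RNA (-0.07). Slc25a20, which imports acylcarnitine, had 271 RPM of footprints against 156 of RNA (1.23), and Slc25a37, an iron importer, had 5.35 RPM of footprints against 50.5 of RNA (-2.78). Shapers of the organelle centred on 0.17, with the cristae protein Chchd3 at 841 RPM of footprints against 339 of RNA (1.75) and Mff, a receptor for fission, at 22.8 RPM of footprints against 89.8 of RNA (-1.53).

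Membrane traffic genes lay mostly above the median gene (theme median 0.34 over 200 genes, 53 at least 2-fold above and 16 below). Tetraspanins, small proteins that organise surface and vesicle membranes, had a median of 0.79 (21 genes; 9 above, 2 below). Cd82 had 32.7 RPM of footprints against 5.89 RPM of RNA (2.89), Cd63 113.0 RPM of footprints against 38.7 of RNA (1.98) and Cd81 415 RPM of footprints against 275 of RNA (1.03), whereas Tspan12 had 7.69 RPM of footprints against 38.2 of RNA (-1.86). Arf and Arl GTPases, which recruit vesicle coats, stood at 0.70 (19 genes), and V-ATPase subunits, which acidify lysosomes, at 0.63 (15 genes). Rab GTPases, which label organelles, had a median of 0.37 over 37 genes, 12 of them at least 2-fold above. Rab6b stood at 2.84, but Rab28 had 3.61 RPM of footprints against 55.0 of RNA (-3.45, counting interval -3.81 to -3.18). Among 31 SNAREs, the fusion proteins, Vamp2 was at 2.32 while Vti1b, the member with most RNA reads, had 13.2 RPM of footprints against 78.2 of RNA (-2.12). The Vps genes of endosomal sorting were spread as widely (median 0.19, 28 genes): Vps26a of the retromer had 97.2 RPM of footprints against 57.9 of RNA (1.19) and Vps54 of the GARP tether 4.14 RPM of footprints against 72.4 of RNA (-3.66). For the gateway of the secretory pathway, the translocon, signal peptidase and oligosaccharyltransferase, the median was 0.23 (30 genes), with the translocon subunit Sec61b at 36.3 RPM of footprints against 5.03 of RNA (3.27). With the trend along coding length removed, the medians were 0.39 for tetraspanins, 0.18 for Vps genes and 0.16 for V-ATPase subunits. They were 0.06 for Arf and Arl GTPases, 0.005 for the gateway genes, -0.03 for SNAREs and -0.13 for Rab GTPases.

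The cytoskeleton divided between filament proteins and large linkers or motors. Septins, GTP-binding proteins that form cortical filaments, had a median of 1.19 over 9 genes, all above the median gene and 5 at least 2-fold above. Septin8 had 68.7 RPM of footprints against 28.9 RPM of RNA (1.69) and Septin7, the member with most RNA reads, 219 RPM of footprints against 183 of RNA (0.70). Tubulins had a median of 1.02 over 7 genes (4 at least 2-fold above, none below), with Tuba1b at 478 RPM of footprints against 275 of RNA (1.24), although tubulin genes are so alike that reads may be shared between them. Of the actin-binding Arp2/3, capping, profilin and thymosin genes 8 of 19 were at least 2-fold above and none below (median 0.63). Capzb, the capping protein subunit that anchors actin at the Z-disc, had 402 RPM of footprints against 93.4 of RNA (2.54), and Tmsb10, a tiny actin-sequestering protein, 74.99 RPM of footprints against 4.28 of RNA (4.54, interval 4.12 to 5.06). Kinesins and dynein heavy chains stood lower with a median of -0.59 (21 genes; 1 above, 6 below), as did spectrins, ankyrins and plakins with -0.83 (7 genes; 3 below). Kif1c, a kinesin of vesicle transport, had 121 RPM of footprints against 831 of RNA (-2.34), and Macf1, a linker of microtubules and actin, 530.1 RPM of footprints against 2399 of RNA (-1.74). Single dynein genes differed: the heavy chain Dync1h1 had 782 RPM of footprints against 1302 of RNA (-0.30), and the light chain Dynll2 199 RPM of footprints against 26.8 of RNA (3.33). Dynll2 was the highest of 7 dynein light and intermediate chain genes, whose median was 0.47. The lowest of them, Dync1li2, stood at -0.74, below the heavy chain.

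**Figure D3:**
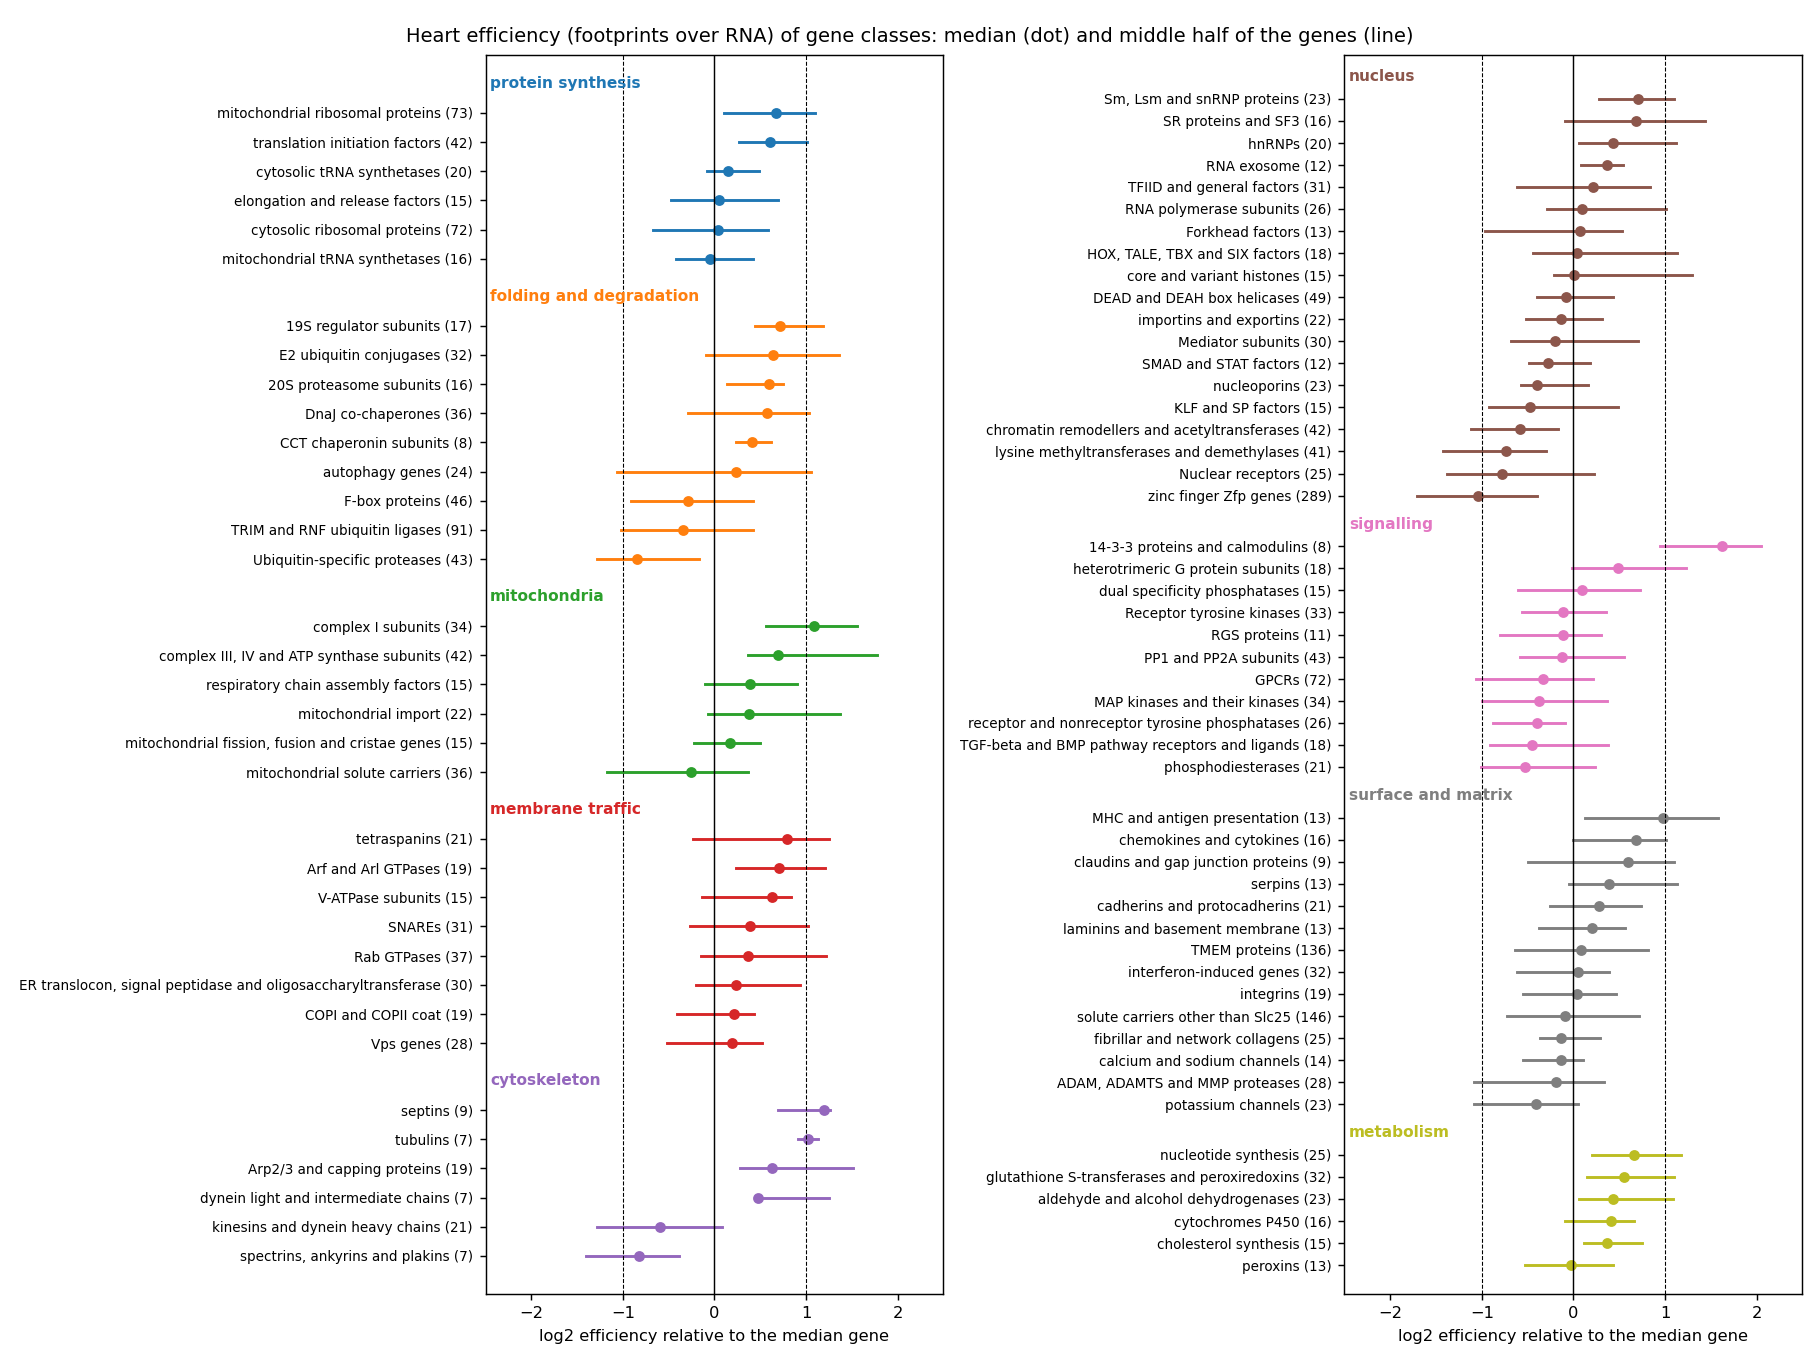
Median log2 efficiency in heart relative to the median gene (dot) and interquartile range (line) of 85 of the 87 classes, grouped by theme, with the number of genes in brackets; the solid line is the median gene and the dashed lines are 2-fold either side. The medians run from 1.62 for the 14-3-3 proteins and calmodulins to -1.04 for the zinc finger genes.

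Nuclear genes made up the largest theme and the lowest, with a median of -0.44 over 722 genes, 69 (9.56%) at least 2-fold above and 221 (30.6%) at least 2-fold below. They took 1.96% of coding footprints and 3.29% of coding RNA. The zinc finger genes, grouped only by the names Zfp, Zbtb, Zscan or Zkscan, were the main block. Their 289 members had a median of -1.04 (interquartile range -1.71 to -0.40), and 148 (51.2%) lay at least 2-fold below while 10 lay at least 2-fold above. Zfp106, the member with most RNA reads, had 127.8 RPM of footprints against 1837 RPM of RNA (-3.40, counting interval -3.46 to -3.35), and Zfp672 had 1.91 RPM of footprints against 32.0 of RNA (-3.56). At the other end Zfp428 had 9.88 RPM of footprints against 3.10 of RNA (2.08). Writers and erasers of histone lysine methylation followed with a median of -0.73 (41 genes; none above, 17 below). Mll3 had 43.0 RPM of footprints against 373 of RNA (-2.67) and Nsd1 44.5 RPM of footprints against 333 of RNA (-2.46), while Smyd1, the methyltransferase of heart and skeletal muscle, had 666 RPM of footprints against 452 of RNA (1.00, just under the 2-fold line). Chromatin remodellers and acetyltransferases stood at -0.58 (42 genes; 1 above, 15 below), from Kat2b at 24.5 RPM of footprints against 196 of RNA (-2.56) to Smarcb1, a core subunit of the SWI/SNF complex, at 69.8 RPM of footprints against 18.4 of RNA (2.36). Both chromatin classes have long coding sequences. Removing the trend along coding length left the remodellers and acetyltransferases at -0.14, the lysine methylation class at -0.51 and the zinc finger genes at -0.90.

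Transcription factor families differed from one another. Nuclear receptors had a median of -0.79 (25 genes; 3 above, 11 below). The clock repressor Nr1d2 had 52.4 RPM of footprints against 198 RPM of RNA (-1.48) and the oxysterol receptor Nr1h3 3.22 RPM of footprints against 18.9 of RNA (-2.08), whereas Esrrg, a receptor that drives oxidative genes, had 44.7 RPM of footprints against 28.7 of RNA (1.08). KLF and SP factors had a median of -0.47 (15 genes; 3 above, 3 below) and spread from Klf13 (28.7 RPM of footprints against 4.17 of RNA, 3.19) and Klf2 (2.96) to Sp3 (23.5 RPM of footprints against 102.8 of RNA, -1.69). The 13 Forkhead factors centred near the median gene (0.07; 2 above, 3 below). Among them Foxo3, a regulator of atrophy and stress genes, had 144 RPM of footprints against 59.5 of RNA (1.72) and Foxk2 3.22 RPM of footprints against 23.6 of RNA (-2.39). SMAD and STAT factors had a median of -0.28 (12 genes; 1 above, 1 below). Stat3, which relays cytokine signals, had 273 RPM of footprints against 157.5 of RNA (1.23), and Smad7, the brake on TGF-beta signalling, 3.86 RPM of footprints against 13.1 of RNA (-1.29). Homeobox and T-box factors centred near the median gene as well (0.04 over 18 genes; 5 above, 1 below). The homeobox factor Irx3 had 49.4 RPM of footprints against 13.9 of RNA (2.26), and Tbx20, a factor of cardiac lineage, was at the median gene (62.1 RPM of footprints against 86.4 of RNA, -0.03).

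Several classes that handle RNA stood above the median gene. Sm, Lsm and snRNP proteins, the core of the spliceosome, had a median of 0.70 (23 genes; 8 above, 1 below), SR proteins and SF3 subunits one of 0.68 (16 genes; 6 above, none below) and hnRNPs one of 0.43 (20 genes; 6 above, none below). Removing the trend along coding length left the Sm, Lsm and snRNP proteins near the median gene at 0.09. The SR proteins and SF3 subunits then stood at 0.60 and the hnRNPs at 0.37. Hnrnpa0 had 54.9 RPM of footprints against 7.71 RPM of RNA (3.26), and Sf3b4 32.2 RPM of footprints against 9.95 of RNA (2.12). RNA polymerase subunits varied by member: Polr2f had 86.1 RPM of footprints against 22.3 of RNA (2.39) and Polr2l 121.9 RPM of footprints against 32.2 of RNA (2.36), but Polr2m had 16.4 RPM of footprints against 224 of RNA (-3.32). Mediator, the bridge between factors and the polymerase, was likewise split (median -0.20, 30 genes, 7 above and 6 below), with Med30 at 37.7 RPM of footprints against 8.24 of RNA (2.62) and Med13 of its kinase module at 27.7 RPM of footprints against 239 of RNA (-2.66). DEAD and DEAH box helicases kept close to the median gene: 46 of 49 were within 2-fold of it (median -0.08), and so were 22 of 23 nucleoporins (median -0.40). Both medians turned positive when the trend along coding length was removed, to 0.17 for the helicases and 0.23 for the nucleoporins. Histones had a median of 0.01 over 15 genes, 5 of them at least 2-fold above, but their genes are nearly identical within families and may share reads.

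Signalling genes had a theme median of -0.22 over 366 genes (45 at least 2-fold above, 71 below), and small adaptors and switches stood above the enzymes and receptors. The 14-3-3 proteins and calmodulins, adaptors for phosphoproteins and for calcium, had the highest median of all classes at 1.62. All 8 lay above the median gene and 6 at least 2-fold above, from Calm2 with 68.8 RPM of footprints against 75.7 RPM of RNA (0.30) to Ywhab with 76.4 RPM of footprints against 24.4 of RNA (2.08) and Ywhag, above. The 3 calmodulin genes encode the same protein and 14-3-3 genes are alike, so reads may be shared among them. Heterotrimeric G protein subunits had a median of 0.48 (18 genes), with Gnas, the stimulatory alpha subunit under beta-adrenergic receptors, at 1156 RPM of footprints against 864 of RNA (0.86) and Gna12 at 17.1 RPM of footprints against 78.6 of RNA (-1.76). Among small GTPases of the cytoskeleton Rhoa had 260 RPM of footprints against 92.2 of RNA (1.93) and Cdc42 191.7 RPM of footprints against 115.2 of RNA (1.17), while Hras1, a GTPase of growth signalling, had 3.58 RPM of footprints against 17.9 of RNA (-1.85). Of the regulators of such GTPases, the GTPase-activating protein Arhgap5 had 36.4 RPM of footprints against 339 of RNA (-2.78) and the exchange factor Arhgef12 85.0 RPM of footprints against 466 of RNA (-2.02).

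Receptors and second-messenger enzymes leaned low. G protein-coupled receptors had a median of -0.34 over 72 genes (7 above, 19 below). Gpr22, an orphan receptor of the myocardium, had 9.46 RPM of footprints against 79.5 RPM of RNA (-2.62), and its 5' UTR model held 28 upstream AUGs, whereas the endothelin receptor Ednra had 51.9 RPM of footprints against 28.7 of RNA (1.29). Receptor tyrosine kinases stayed nearer the median gene (-0.11, 33 genes; 1 above, 4 below), with the endothelial VEGF receptor Kdr at 269 RPM of footprints against 343 of RNA (0.09). Receptors and ligands of the TGF-beta and BMP pathways had a median of -0.45 (18 genes, 1 above and 3 below). The lowest members were the type I BMP receptor Bmpr1a with 17.1 RPM of footprints against 123.9 of RNA (-2.41) and the type II receptor Bmpr2 with 32.8 RPM of footprints against 149.5 of RNA (-1.75). The ligand Tgfb1 had 9.49 RPM of footprints against 5.67 of RNA (1.17). Phosphodiesterases, which break down cyclic nucleotides, were grouped by name and had a median of -0.53 (21 genes, 3 above and 6 below). Not all members are such enzymes. Pde4dip, counted among them, is the centrosome and Golgi protein myomegalin that anchors a phosphodiesterase, and had 1048 RPM of footprints against 4867 of RNA (-1.78). MAP kinase pathway members ran from Map2k7 with 81.9 RPM of footprints against 40.4 of RNA (1.46) to Map3k10 (-2.77) and Mapk6, above. Of the phosphatase subunits Ppp1r3a, which targets PP1 to glycogen, had 287 RPM of footprints against 482 of RNA (-0.31).

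Genes of the surface and matrix centred on the median gene (0.03 over 508 genes; 16.1% at least 2-fold above and 14.4% below, close to the background). Antigen presentation stood out within them at a median of 0.98 (13 genes; 6 above, none below). B2m, the light chain of class I molecules, had 289 RPM of footprints against 79.4 RPM of RNA (2.30), and H2-K1, a class I heavy chain, 228 RPM of footprints against 88.0 of RNA (1.81); class I genes are near-identical and may share reads. Chemokines and cytokines had a median of 0.68 (16 genes; 4 above, 2 below), from Cxcl12, a chemokine of stromal cells, at 70.8 RPM of footprints against 16.6 of RNA (2.53) to Il15, above. Collagens stood at -0.14 over 25 genes, of which 22 were within 2-fold of the median gene, with Col1a1 at 241 RPM of footprints against 110.8 of RNA (1.56) and Col4a5 at 32.4 RPM of footprints against 108.3 of RNA (-1.30). Of laminins Lamc1 had 590.0 RPM of footprints against 384 of RNA (1.06), and the basement membrane proteoglycan Hspg2 1161 RPM of footprints against 1428 of RNA (0.14). Junction proteins included Gja1, the main ventricular connexin, at 335 RPM of footprints against 212 of RNA (1.10), Cdh2, the N-cadherin of the intercalated disc, at 590 RPM of footprints against 483 of RNA (0.73), and Cdh5, the endothelial cadherin, at 538 RPM of footprints against 220.4 of RNA (1.73). Potassium channels had a median of -0.41 (23 genes; 2 above, 6 below). Kcnh2, the hERG channel of repolarization, had 40.8 RPM of footprints against 99.8 of RNA (-0.85) and Kcng2 150.3 RPM of footprints against 58.4 of RNA (1.80). Cacna1c, the large subunit of the L-type calcium channel, had 286 RPM of footprints against 802 of RNA (-1.05).

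Solute carriers other than the mitochondrial family were a broad class of 146 genes with a median of -0.09 and 25 at least 2-fold above against 26 below, shares of both signs near the background. Slc8a1, the sodium-calcium exchanger, had 810.45 RPM of footprints against 1044 RPM of RNA (0.08). Slc6a8, which takes up creatine, had 13.6 RPM of footprints against 126.5 of RNA (-2.76). Metabolic genes outside the fuel pathways were more often high than low (theme median 0.41 over 124 genes, 29 at least 2-fold above and 5 below). Nucleotide synthesis had a median of 0.66 (25 genes): the adenylate kinase Ak1 had 1362 RPM of footprints against 337 of RNA (2.45) and the purine salvage enzyme Hprt 141.0 RPM of footprints against 49.9 of RNA (1.94). Glutathione S-transferases and peroxiredoxins stood at 0.55 (32 genes; 9 above, none below), with Gstm1 at 400.3 RPM of footprints against 118.3 of RNA (2.20) and Prdx1 at 453 RPM of footprints against 326 of RNA (0.92), while Txn1, thioredoxin, had 18.9 RPM of footprints against 48.1 of RNA (-0.90). Aldh2, which clears acetaldehyde and lipid aldehydes in mitochondria, had 404 RPM of footprints against 150.2 of RNA (1.87). Cholesterol synthesis stood at 0.37 (15 genes), with Fdft1, squalene synthase, at 15.2 RPM of footprints against 48.6 of RNA (-1.23).

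Classes of short proteins were high and classes of long proteins low. Of 30 classes with a median coding length under 1000 nt, 27 had a median above the median gene, and of 15 classes over 2500 nt, 12 lay below it. Across all genes, the median log2 efficiency fell along quintiles of coding length, with values of 0.59 for 72 to 774 nt, 0.24, 0.09, -0.22 and -0.59 for 2616 nt and longer (Spearman correlation -0.39 over 10680 genes, which are not replicates and share both libraries). With the trend along coding length removed, the median of the 14-3-3 proteins and calmodulins was 1.08, of the septins 0.97, of the tubulins 0.89 and of complex I subunits 0.48, all still above the median gene, and that of the zinc finger genes -0.90. Of 87 class medians 22 changed sign, among them collagens (0.70 after removal), Rab GTPases (-0.13), kinesins and dynein heavy chains (0.07) and spectrins, ankyrins and plakins (0.06). Third-position GC content of codons also ran with efficiency (medians from -0.43 in the lowest quintile to 0.38 in the highest, correlation 0.26 over 10484 genes), and the GC content of the 5' UTR did not run in one direction (correlation 0.00 over 5858 genes). By RNA level, genes with 1 to 3 RPM of RNA had a median of 0.46, those with 30 to 100 RPM one of -0.17, and the 101 genes above 1000 RPM one of 0.52; RNA is the denominator of efficiency, so these are not independent measures.

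Upstream AUGs went with low efficiency across the transcriptome and within classes. In 6044 genes whose 5' UTR model matched the listed length, the 2983 with at least 1 upstream AUG had a median log2 efficiency of -0.41 and the 3061 without one of 0.24. At least 2-fold below the median gene lay 28.9% of genes with an upstream AUG and 8.59% of those without. The median fell with each further AUG, with values of 0.24, -0.19, -0.46, -0.59 and -0.66 for 0, 1, 2, 3 and 4, and -0.84 for 5 or more (413 genes, 43.8% at least 2-fold below). Genes with an upstream AUG lay lower in every quintile of coding length, by -0.47 to -0.60, and in every bin of 5' UTR length, by -0.37 to -0.64. The base 3 before the annotated start, where A or G favours initiation, went with a smaller difference: the median was -0.28 over 837 genes with C or T there and -0.02 over 5153 genes with A or G.

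**Figure D4:**
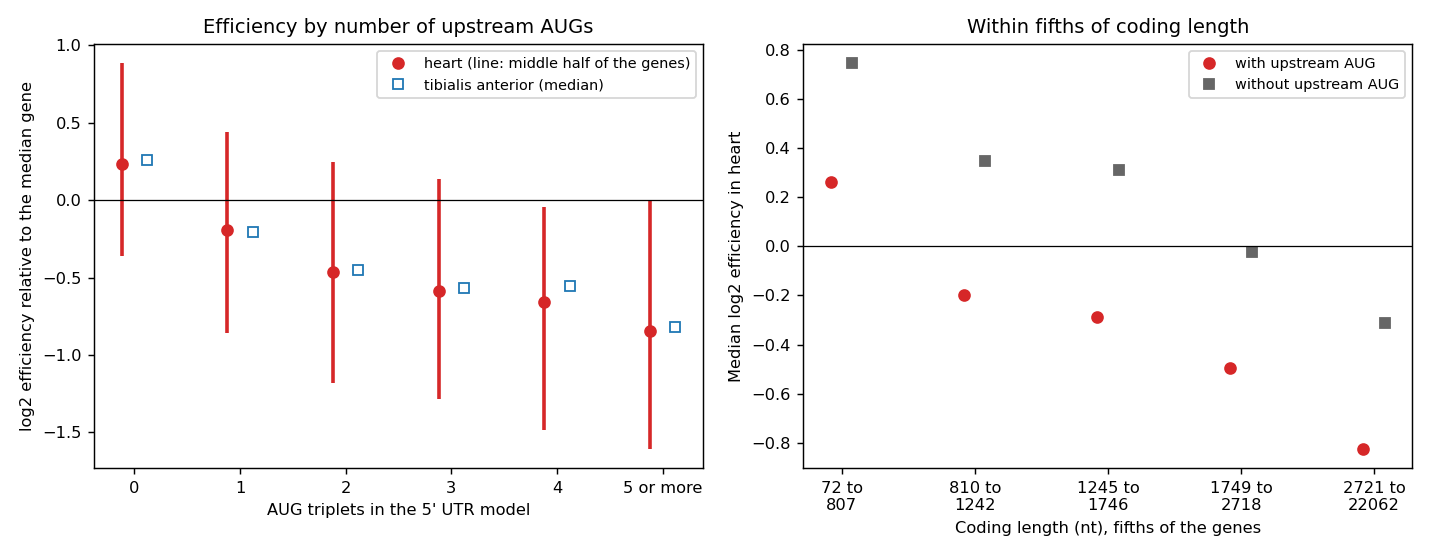
Left, median log2 efficiency in heart (red, line for the interquartile range) and TA (blue squares) by the number of AUG triplets in the 5' UTR model; right, heart medians with (red) and without (grey) an upstream AUG in quintiles of coding length in nt. The heart median goes down at each step from 0.24 without an upstream AUG to -0.84 with 5 or more, and the red points lie under the grey ones in all 5 quintiles.

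Within classes the same order was frequent but not general. Of 38 classes with at least 5 genes with an upstream AUG and 5 without, 28 had the lower median in genes with one. Zinc finger genes with an upstream AUG had a median of -1.29 (131 genes) and those without one of -0.50 (63 genes), so both groups lay below the median gene. For DnaJ co-chaperones the medians were -1.14 with (9 genes) and 0.56 without (15 genes), and for Mediator subunits -0.23 with (8 genes) and 1.02 without (9 genes). The E2 enzymes went the other way, at 1.35 with (5 genes) and 0.42 without (12 genes), and mitochondrial ribosomal proteins did so too, at 0.85 with (13 genes) and 0.55 without (25 genes).

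Footprints in the 5' UTR itself were compared for 3448 genes with at least 1 RPM of 5' UTR RNA. Genes with coding efficiency at least 2-fold below the median had 13.6% of their 5' UTR and coding footprints in the 5' UTR (median over 795 genes), genes within 2-fold 5.55% and genes at least 2-fold above 2.06% (571 genes). The matching shares of RNA were close to each other, at 7.16% in the low genes, 5.93% in those within 2-fold and 6.59% in the high genes. In 46.9% of the low genes and 4.73% of the high genes the 5' UTR was denser in footprints per nt than the coding sequence, against 22.2% of all 3448. Coding footprints enter both the grouping and these shares. The ratio of footprints to RNA within the 5' UTR alone, which does not use them, was 0.487 in the low genes, 0.634 in those within 2-fold and 0.640 in the high genes. The 5' UTR share of footprints was 9.54% in genes with an upstream AUG and 2.36% in genes without, and the matching share of RNA was 7.74% with and 4.81% without. The ratio of footprints to RNA within the 5' UTR was 0.605 in genes with an upstream AUG and 0.544 in genes without.

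The classes were ordered alike in TA, measured in its own 2 libraries. There 15.4% of 10029 genes were at least 2-fold above and 18.7% below their own median, and 80 of 87 class medians had the same sign as in heart. The 14-3-3 proteins and calmodulins stood at 1.62 in heart and 1.55 in TA, complex I subunits at 1.08 in heart and 0.99 in TA, ubiquitin-specific proteases at -0.84 in heart and -0.75 in TA, and zinc finger genes at -1.04 in heart and -0.89 in TA. Of the 15 highest heart genes 14 were at least 2-fold above the TA median too, and all 12 of the lowest that were measured in TA were at least 2-fold below it. Ywhag stood at 3.97 in heart and 3.88 in TA, Pcbp1 at 3.31 in heart and 3.47 in TA, and Ccni at -4.86 in heart and -4.34 in TA. Other high genes stood further apart: Pln was at 3.20 in heart and 0.74 in TA, Uqcrh at 3.29 in heart and 1.82 in TA, Ndufc1 at 3.23 in heart and 1.86 in TA, and Med30 at 2.62 in heart and 0.35 in TA. Cytosolic ribosomal proteins were the class farthest from a match among those with over 20 genes, with 0.04 in heart (10 of 72 at least 2-fold below) and -0.66 in TA (25 of 71). Histones stood at 0.01 in heart and 0.63 in TA. With 1 library each, these differences between muscles were not tested.

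**Figure D5:**
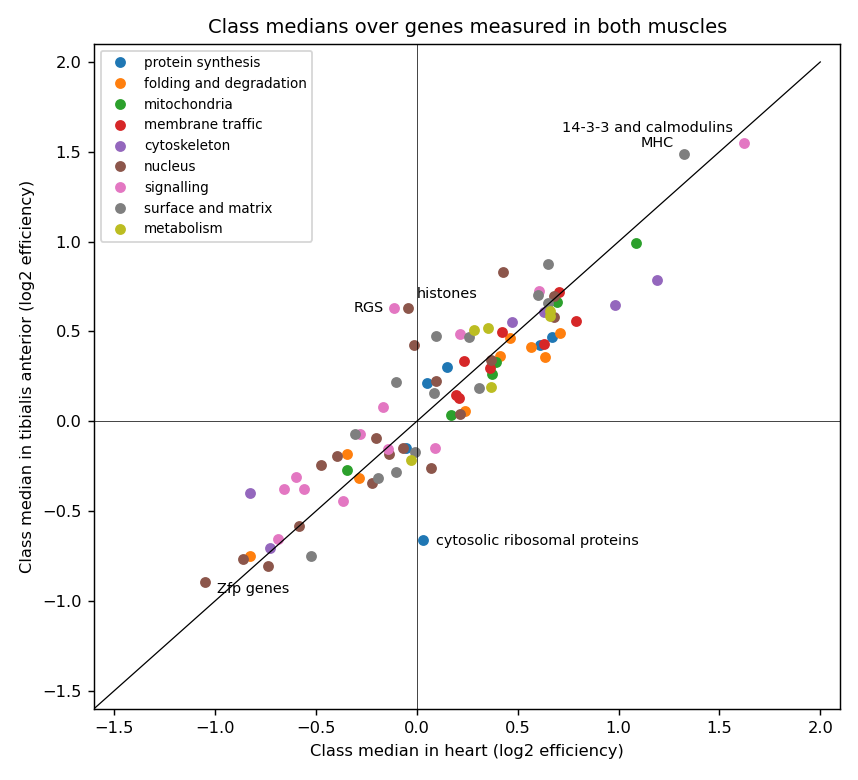
Median log2 efficiency of each class in heart (horizontal axis) and in TA (vertical axis), over the genes of the class measured in both muscles; colours are themes and the diagonal marks equal values. Points follow the diagonal, with cytosolic ribosomal proteins under it and RGS proteins and histones above it.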

How the data were processed

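The deposited values are RPM (reads scaled by the authors to a fixed total per library), per the file headers. Each gene has 1 transcript model, with values and lengths in nt for its 5' UTR, coding sequence and 3' UTR. The values are not length-scaled, and coding columns sum to 993831 to 998118 RPM. Per the labels' protocols, frozen tissue was lysed with cycloheximide; part of the lysate gave total RNA, from which ribosomal RNA was removed, and part was treated with RNase I, pelleted by ultracentrifugation and size-selected on a gel. Mapping was to RefSeq transcripts, per the labels. The submitters' processing notes name Bowtie and mm9. Trimming and the handling of reads with several matches: not given in the sources used here.

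Efficiency was log2((footprints + 0.1)/(RNA + 0.1)) centred on the median of the genes that had 1 RPM of coding RNA or more. A fold on this scale understates changes of low genes. Calls were by size alone, at least 2-fold. Low values lay on whole multiples of a step, within 0.005 RPM, in 100% of cases in each library: 0.0354 RPM for heart footprints, 0.107 for heart RNA, 0.035 for TA footprints and 0.0621 for TA RNA. The files' rounding is coarse beside the footprint steps, so footprint reads are approximate. Intervals of single genes are 95% conditional Clopper-Pearson intervals from these reads, for counting error alone. With 1 library per group there was no residual spread to fit a count model to.

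Classes were lists of symbols and symbol patterns, and members, classes and lists were chosen with earlier results of these data known. Named genes were, for each class of 5 or more, the 2 highest, the 2 lowest and the member with most RNA reads; over all genes, the 15 highest and 15 lowest at 10 RPM of RNA or more, and the 10 with most footprints and with most RNA. Not all are printed. Accessions were matched to GENCODE M21 transcripts (GRCm38), used for sequence only and with no coordinates, since mm9 is another build: 10484 coding sequences matched in length and start codon, and 6044 5' UTR models lay within 20 nt of the listed length. For heart, 17 symbols had turned into spreadsheet dates and were named from their accessions, and of 5 symbols on more than 1 line the line with the highest summed coding value was used. Scripts ran in Python 3.11.15 (scipy 1.17.1, pandas 2.3.3, numpy 2.4.6, matplotlib 3.10.9) and were first tested on simulated data. Alternatives changed the pseudocount, the RNA minimum, the centring, the trend with coding length and the choice of lines. A few genes and classes are not reported here.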

Additional observations from a re-analysis of the deposited data

Results flagged for a closer look

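Among 9635 genes measured in both muscles, 5 were at least 2-fold away from the median gene in opposite directions, and no difference between muscles was tested. Mef2c, a transcription factor of muscle development, stood at 1.34 in heart and -1.63 in TA, a difference of 2.97 on the log2 scale, with 43.2 RPM of RNA in heart and 215 RPM in TA. Atp2a1, the calcium pump of fast fibres, stood at -1.09 in heart and 1.24 in TA (-2.33), with 69.0 RPM of RNA in heart and 32953 RPM in TA. For these 2 genes RNA was at least 10 RPM in both muscles. The other 3 had under 3 RPM of RNA in heart: Pak1, a kinase downstream of Rac and Cdc42, differed by 3.82, Napb, a SNARE recycling factor, by 3.16 and Dlg4, a synaptic scaffold, by 2.42.

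Footprints in the 3' UTR, where translating ribosomes are rare, summed to 0.547% of coding footprints in heart, but 7 genes had at least 10 times more of them than coding footprints, at 10 RPM or more, of which 6 are given here. Grk4, a receptor kinase, had 102 RPM of 3' UTR footprints against 0.43 RPM in its coding sequence. Of the zinc finger genes Zfp334 had 83.6 RPM in the 3' UTR against 3.37 RPM in the coding sequence, Zfp341 12.01 RPM in the 3' UTR against 1.20 RPM in the coding sequence and Zbtb7c 51.6 RPM in the 3' UTR against 1.81 RPM in the coding sequence. The chemokine gene Ccl21b had 27.7 RPM in the 3' UTR against 1.95 RPM in the coding sequence and the hyaluronan synthase Has3 26.3 RPM in the 3' UTR against 1.67 RPM in the coding sequence. The RNA of these genes was spread unlike. Grk4 had 87.8 RPM of RNA in the 3' UTR against 1.18 RPM in the coding sequence. For Ccl21b the RNA was 16.5 RPM in the 3' UTR against 1.39 RPM in the coding sequence. In the same order it was 8.35 against 2.89 RPM for Has3 and 3.42 against 1.71 RPM for Zbtb7c. It was 8.67 against 6.53 RPM for Zfp334 and 1.07 against 3 RPM for Zfp341. What made the 3' UTR footprints was not tested.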

How the results depend on the processing

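No paired analysis was possible because each group was 1 library, and for the same reason no replicate could be left out. Without centring, 852 genes were at least 2-fold above and 3182 at least 2-fold below equal shares of footprints and RNA, and 31 of 87 class medians changed sign. Under the other alternatives the counts were 1398 to 1744 above and 1639 to 1946 below, and no gene called 2-fold away among the 443 named changed sign under any alternative. With the trend along coding length removed, genes with an upstream AUG lay -0.49 from genes without one, against -0.65 with the trend, and 22 class medians changed sign. After a fit on coding length, third-position GC and the number of upstream AUGs, an alternative chosen after seeing the data, 23 of 84 class medians changed sign. A pseudocount of 1 and a minimum of 5 RPM turned 2 class medians each, and no minimum turned 1. Depth limits low genes: 1 RPM was about 28 reads of heart footprints and 9 of heart RNA.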

Other observations

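Other genes, chosen after their values were seen, also had more heart footprints in the 3' UTR than in the coding sequence, with smaller ratios. Cybb, the NADPH oxidase subunit of phagocytes, had 17.5 RPM of 3' UTR footprints against 14.9 RPM in its coding sequence, Eif2ak2, the kinase that senses double-stranded RNA, 17.1 RPM in the 3' UTR against 16.7 RPM in the coding sequence, Rab23 28.4 RPM in the 3' UTR against 7.26 RPM in the coding sequence and Lmo2, a haematopoietic and endothelial factor, 19.1 RPM in the 3' UTR against 6.31 RPM in the coding sequence.

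The 17 date-like symbols of the heart table each stood 1 day before the date that the gene of their accession would give. The line listed as 4-Sep carries septin-5, the line listed as 6-Sep septin-7 and the line listed as 5-Mar the ubiquitin ligase MARCH6, so that reading the dates as symbols would assign 219 RPM of Septin7 footprints to another septin.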
